A study of Mus musculus with 20 samples.

Results

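The genes described here are 10 genes of antigen presentation, measured mouse by mouse in the cerebellum. They were taken by name (B2m, H2-K1, H2-D1, Tap1 and Tapbp for MHC class I, and Cd74, H2-Aa, H2-Ab1, H2-Eb1 and Ciita for MHC class II), and each symbol matched 1 identifier among the 55401 genes of the count table. All 10 passed the filter on low counts in each fit. RNA-seq was done on 20 mice of the C57BL/6J strain, with 1 cerebellum per library. SCA7 140Q/5Q knock-in mice carry an expanded CAG repeat in 1 copy of Atxn7, the gene of spinocerebellar ataxia type 7. At the label 25w there are 5 SCA7 mice given AAV-shA4, a viral vector for a short hairpin RNA directed at CAG repeats, 5 SCA7 mice given AAV-shSCR, a scrambled hairpin, and 4 untreated WT mice. At the label 9w, 3 WT mice had received AAV-shA4 and 3 WT mice were untreated. According to the study's methods, the AAV PHP.eB vector also carries an eGFP reporter and was injected into the blood. The methods also state that mice called untreated received saline by injection. The labels do not say from when the weeks are counted. The paper counts both times from injection, and its number of weeks for the SCA7 mice differs from the label 25w. Both SCA7 groups received AAV and the WT mice at 25w did not, so genotype and vector cannot be told apart in comparisons with WT mice.

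MHC class I molecules show peptides made inside the cell to CD8 T cells. Each is a heavy chain, such as the products of H2-K1 and H2-D1, paired with the light chain beta-2 microglobulin, the product of B2m. Tap1 encodes a subunit of the transporter that brings peptides into the endoplasmic reticulum, and Tapbp encodes tapasin, which helps to load them. MHC class II molecules show peptides from the outside to CD4 T cells and are made by few cell types. H2-Aa and H2-Ab1 encode the alpha and beta chains of I-A, and H2-Eb1 the beta chain of I-E, whose alpha chain C57BL/6 mice lack. Cd74 encodes the invariant chain that guides class II molecules, and Ciita the transactivator needed for class II transcription. In healthy brain, neurons make little MHC, and class II is known mainly from border macrophages, dendritic cells and activated microglia. In bulk RNA, fewer cells of a type and less RNA per cell cannot be told apart.

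Between 31465586 and 54570503 reads were counted on genes in a library. In each of the 32 pairs of mice within a group the counts differed beyond sampling noise (chi-squared statistic 4.87 to 26.1 times its degrees of freedom), so each mouse was 1 replicate. P-values measure the spread between these mice. The RNA of Atxn7, read without telling the alleles apart, lay between 44.9 and 52.6 CPM (counts scaled to library size) with AAV-shSCR, between 43.8 and 51.0 CPM with AAV-shA4 and between 45.0 and 49.5 CPM in WT mice at 25w, so it does not separate these groups. The Purkinje cell genes Pcp2, Calb1 and Car8 were present in all groups, and their mean in WT mice at 25w was 543 CPM for Pcp2. The 6 choroid plexus markers summed to between 28.4 and 3752 CPM at 25w.

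Per kilobase of the longest coding transcript, the genes of class I lay above those of class II, with Tap1 as the exception. The medians over the 20 mice were 140.5 CPM per kb for B2m, 61.9 for H2-D1, 26.4 for H2-K1 and 12.7 for Tapbp. On the same scale, Cd74 had a median of 7.54, H2-Aa 4.21, H2-Ab1 2.95, H2-Eb1 2.37 and Tap1 1.45 CPM per kb. Ciita was lowest with 0.0668 CPM per kb, and 11 to 71 reads in a library. The ranges over mice of B2m (90.1 to 216 CPM per kb), H2-D1 (58.4 to 78.5) and H2-K1 (14.9 to 41.3) did not overlap. From H2-K1 down to Tap1, each gene's range overlapped that of the next, so their order is that of the medians, and Ciita (at most 0.330 CPM per kb) lay below all others.

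The promoters of 7 of the 10 genes were searched for a short element. The RefSeq table (GRCm38.p6, 250 bases before to 50 after each start) was searched on both strands for CTGATTGG, the core of the Y box that NF-Y binds in MHC promoters. Of 7 genes read here, 5 held it (H2-K1, H2-D1, Tap1, H2-Aa and H2-Eb1) and the other two, B2m and Tapbp, did not, while 4.1% of 32851 promoters did. Windows of 30 bases follow, 5′ to 3′ on the strand of the gene, with the element in capitals, which reads CCAATCAG where it lies on the other strand.
H2-Aa: aagagaattttCTGATTGGttctggcgagt
H2-Eb1: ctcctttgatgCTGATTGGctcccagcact
H2-K1: atcaccaagaaCCAATCAGtgtcgccgcgg
H2-D1: gattccaggagCCAATCAGcgtcgccgcgg
Tap1: ggctcggctttCCAATCAGcggctgcgcgc

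These windows lie at chr17:34287856-34287885 (- strand) for H2-Aa, chr17:34305794-34305823 (+) for H2-Eb1, chr17:34000321-34000350 (-) for H2-K1, chr17:35263030-35263059 (+) for H2-D1 and chr17:34187323-34187352 (+) for Tap1. Counted from the start base as 0, the element lies at -51 to -44 in H2-Aa and at -62 to -55 in H2-Eb1, the class II genes. Of H2-K1, which has 2 entries, the first was read. The element lies at -53 to -46 in H2-D1, at 8 to 15 in H2-K1 and at -222 to -215 in Tap1. In the GENCODE annotation of the same build, H2-K1 spans chr17:33996017-34000347 and H2-D1 chr17:35262730-35267499, so the H2-D1 window lies inside a longer gene model. B2m lies outside the MHC region, at chr2:122147686-122153083.

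H2-K1 and H2-D1, whose ratio differed between SCA7 and WT mice, both hold GGGATTCCC, letters like those bound by NF-kB, which 0.353% of promoters hold on either strand. The windows are shown since both genes are alike around it.
H2-K1: cccagggctgGGGATTCCCcatctccacag
H2-D1: cccagggctgGGGATTCCCcatctcctcag

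They lie at chr17:34000438-34000467 (- strand) and chr17:35262914-35262943 (+ strand). The motifs were chosen with these windows known, and a match is a run of letters, not a measured binding.

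**Figure D1:**
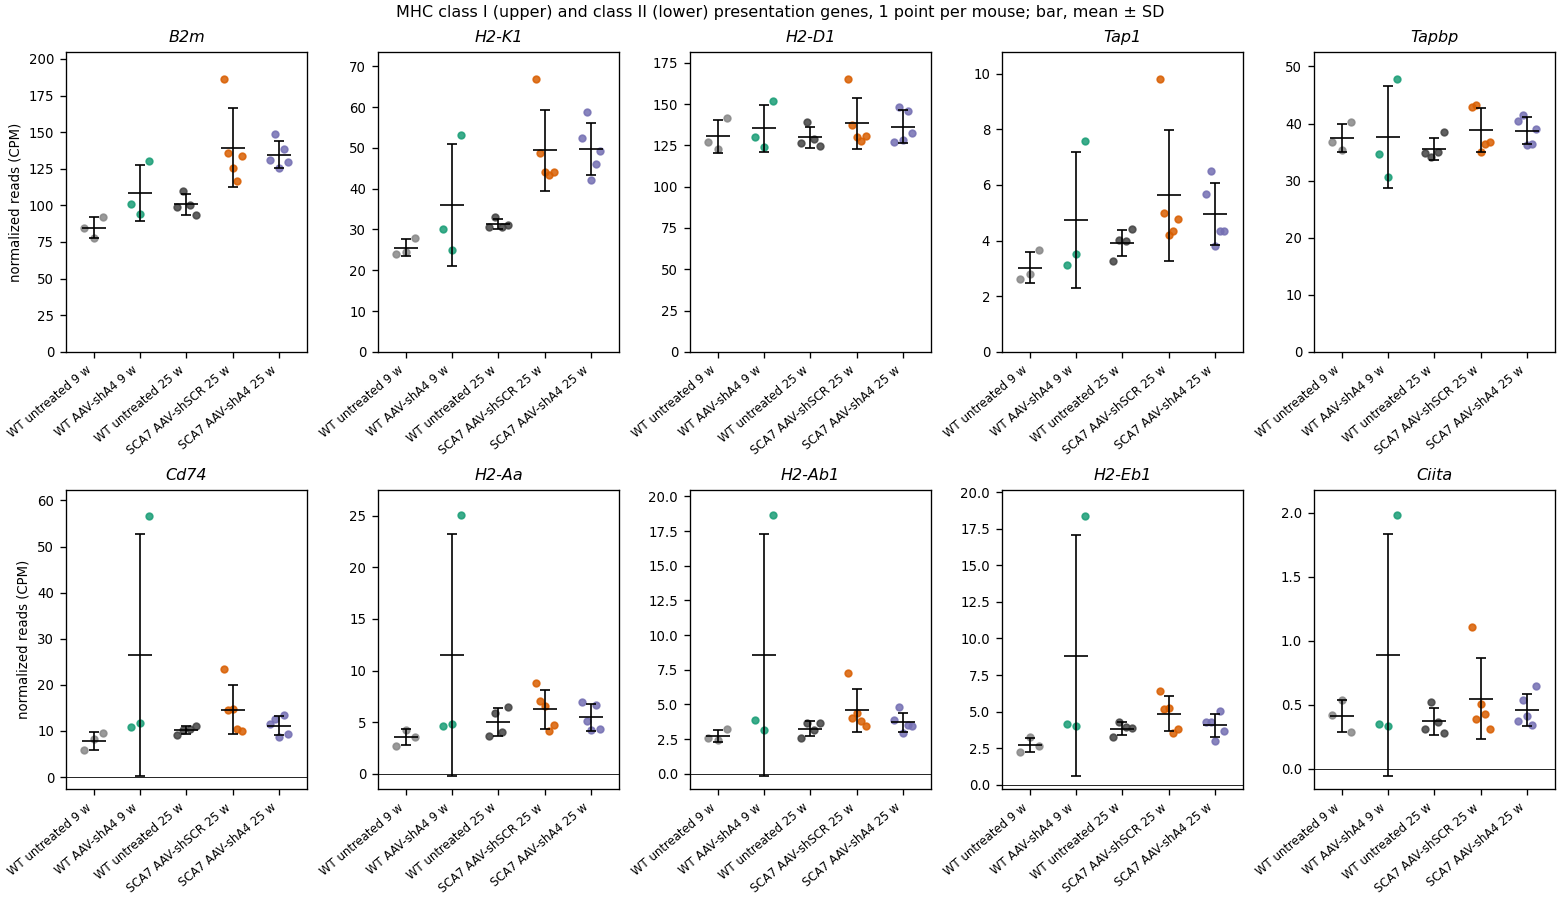
Normalized reads (CPM, y axis) of the 10 genes in the 20 mice by group (x axis), with 1 point per mouse and the mean ± SD in black. H2-K1 and B2m lie higher in both SCA7 groups than in untreated WT mice, and H2-D1 hardly moves. Replicate 3 of the WT mice given AAV-shA4 reaches 56.7 CPM of Cd74, 53.07 CPM of H2-K1 and 130.4 CPM of B2m.

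The clearest difference of class I was in H2-K1 and B2m, which rose in SCA7 mice whichever hairpin they had received. In reads of the classical heavy chain H2-K1, the 4 untreated WT mice at 25w had 30.7, 33.0, 30.5 and 31.03 CPM. The 5 SCA7 mice given AAV-shSCR had 66.8, 48.7, 44.1, 43.4 and 44.0 CPM, and the 5 given AAV-shA4 had 52.3, 58.7, 42.1, 46.0 and 49.3 CPM. The lowest SCA7 mouse thus stood above the highest of these 4 WT mice. Against WT, the rise on the log2 scale was 0.66 ± 0.12 (SE) in AAV-shSCR mice (1.58-fold, edgeR quasi-likelihood test, adjusted p = 0.000825) and 0.67 ± 0.12 in AAV-shA4 mice (1.59-fold, adjusted p = 0.000773).

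B2m, which all class I heavy chains need, followed H2-K1 with a smaller change. WT mice at 25w had 98.8, 110, 100.2 and 93.5 CPM of B2m. With AAV-shSCR the 5 SCA7 mice had 186, 136, 125, 116 and 134 CPM, and with AAV-shA4 they had 131, 149, 125, 138.5 and 130 CPM, again without overlap with WT. On the log2 scale it rose by 0.47 ± 0.10 in AAV-shSCR mice (edgeR, adjusted p = 0.00429) and by 0.42 ± 0.10 in AAV-shA4 mice (adjusted p = 0.0102). The first of these rests on replicate 1 of the AAV-shSCR group for its size, since without it the log2 fold change was 0.35 and under the fold limit of 1.3, at an adjusted p of 0.00119.

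These are the 2 of 10 genes called in each SCA7 group against WT mice, at an adjusted p under 0.05 and a fold above 1.3. Over all genes tested, 1.35% were called higher with AAV-shSCR and 1.18% with AAV-shA4. The same 2 genes were those without overlap between groups, against 7.48% and 5.53% of all genes that lay wholly higher. The comparisons share the 4 WT mice. In each, the log2 fold change of all 10 genes was above 0, with a median of 0.48 with AAV-shSCR and 0.16 with AAV-shA4, beside 0.0017 and 0.0061 over all genes tested.

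H2-D1, the other classical heavy chain, did not pass the test. Its level over all 20 mice lay between 123 and 165 CPM, and at 25w the WT mice had 127, 139, 129 and 125 CPM. The SCA7 mice had 165, 137.5, 130.0, 128 and 131 CPM with AAV-shSCR and 127, 148, 128, 146 and 132 CPM with AAV-shA4, overlapping the WT range. The log2 fold change against WT was 0.09 ± 0.07 (95% interval -0.04 to 0.23, adjusted p = 0.408) and 0.07 ± 0.07 (-0.06 to 0.21, adjusted p = 0.562). In the gene models, 10.1% of the 49-base stretches of H2-K1 and 13.4% of those of H2-D1 occur in other genes. The gene sharing most was H2-Q10 for H2-K1 (5.31% of stretches) and H2-Q1 for H2-D1 (5.98%). A small share of the reads of H2-K1 and H2-D1 is thus of uncertain origin.

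The unequal change of both heavy chains was then read as a ratio within each mouse, which is free of library scaling. These ratios were chosen after the values were seen, so their p-values, also when adjusted, describe the separation and are no separate test of it. The ratio of H2-K1 to H2-D1 reads lay between 0.237 and 0.249 in the 4 WT mice at 25w, between 0.336 and 0.405 with AAV-shSCR and between 0.316 and 0.412 with AAV-shA4. It was 1.47-fold and 1.503-fold higher than in WT mice, respectively, with an exact two-sided permutation p of 0.0159 for each, the smallest that 5 against 4 mice give in this test (0.0476 adjusted over 15 such comparisons). The ratio of B2m to H2-D1 reads lay between 0.750 and 0.791 in WT mice, between 0.912 and 1.13 with AAV-shSCR and between 0.950 and 1.03 with AAV-shA4, with the same exact permutation p. Both ratios are lower in the 3 untreated WT mice at 9w, between 0.190 and 0.200 and between 0.632 and 0.667. Here 4 against 3 mice gave an exact two-sided permutation p of 0.0571 for each (0.107 adjusted), the smallest they give in this test. In the 3 WT mice given AAV-shA4 at 9w the ratio to H2-D1 was 0.2003 to 0.350 for H2-K1 and 0.761 to 0.860 for B2m, above these untreated mice (exact permutation p = 0.1 for each, the smallest that 3 against 3 mice give, adjusted 0.136).

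**Figure D2:**
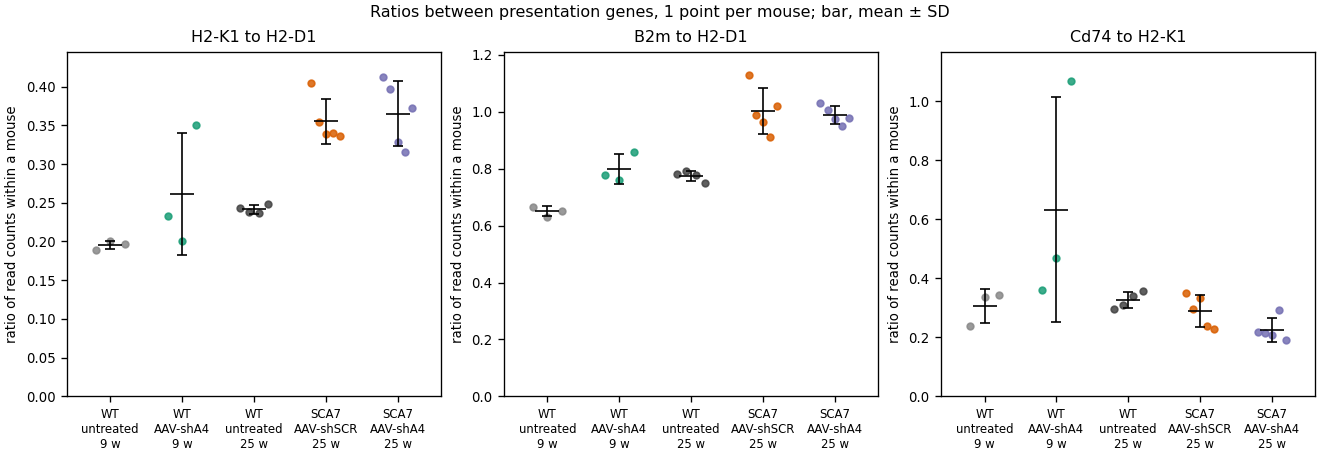
Ratio of read counts between 2 genes within a mouse (y axis) for the 5 groups (x axis), with 1 point per mouse and the mean ± SD in black. The ratio of H2-K1 to H2-D1 rises from 0.190 to 0.200 in untreated WT mice at 9w to 0.237 to 0.249 at 25w and to 0.316 or more in the 10 SCA7 mice.

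Tap1 and Tapbp, which serve peptide transport and loading, lay between these patterns. Tap1 had 3.25, 4.00, 3.98 and 4.40 CPM in WT mice at 25w, and 9.80, 5.00, 4.21, 4.35 and 4.79 CPM in SCA7 mice given AAV-shSCR. With AAV-shA4 it had 5.67, 6.52, 3.81, 4.35 and 4.35 CPM. The SCA7 and WT ranges overlapped, and neither the change of 0.53 ± 0.23 on the log2 scale in AAV-shSCR mice nor that of 0.34 ± 0.23 in AAV-shA4 mice passed (edgeR, adjusted p = 0.130 and 0.359). Tapbp lay between 34.2 and 38.5 CPM in WT mice and between 35.1 and 43.3 CPM in SCA7 mice, which was 0.13 ± 0.06 and 0.12 ± 0.06 above WT on the log2 scale (edgeR, adjusted p = 0.206 and 0.240). Tap1 overlaps Psmb9 on the opposite strand and Tapbp overlaps Zbtb22 on the same strand, and whether strand was used in counting is not given in the sources used here. Ciita likewise overlaps Dexi on the opposite strand.

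Other genes of the class I pathway rose with H2-K1. Of 12 tested class I heavy chains outside the 10 genes, 3 were called higher in both SCA7 groups and 0 lower. These are H2-Q4, H2-Q6 and H2-Q7, genes of the non-classical Q region, whose copies are so alike that reads can be split among them. With AAV-shSCR the log2 fold changes were 1.48 ± 0.25 for H2-Q7, 1.24 ± 0.27 for H2-Q6 and 0.81 ± 0.19 for H2-Q4 (edgeR, adjusted p = 0.000676, 0.00399 and 0.00658). With AAV-shA4 they were 1.46 ± 0.25, 1.28 ± 0.26 and 0.86 ± 0.19 (adjusted p = 0.000813, 0.00345 and 0.00499).

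Of the 12 genes that supply or load class I peptides, 4 were called higher in AAV-shSCR mice, 2 in AAV-shA4 mice and 0 lower. Nlrc5, the class I transactivator, had mean levels of 3.73 and 3.07 CPM in the AAV-shSCR and AAV-shA4 groups against 1.57 CPM in WT mice. This is a rise of 1.26 ± 0.31 and 0.98 ± 0.31 on the log2 scale (edgeR, adjusted p = 0.0111 and 0.0473). Psme1, a subunit of the PA28 proteasome activator, rose by 0.49 ± 0.06 and 0.42 ± 0.06 on the log2 scale (adjusted p = 5.4e-05 and 0.000257). Psmb8, an immunoproteasome subunit, was called with AAV-shSCR (0.74 ± 0.19, adjusted p = 0.0118), as was Tap2, the partner of Tap1 (0.40 ± 0.08, adjusted p = 0.00227), which was added after its values were seen. In AAV-shA4 mice Psmb8 was at 0.56 ± 0.19 (adjusted p = 0.0591), and Tap2 at 0.35 ± 0.08 passed the adjusted p (0.00655) but not the fold limit. The difference between the hairpins was tested directly, and 0 genes of either list were called in that comparison.

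Ifng, the gene of interferon gamma, had 0 reads in 18 of the 20 libraries and 1 read in AAV-shSCR replicate 1 and in AAV-shA4 WT replicate 3, and was not tested. The list of the interferon gamma axis and of general interferon-response genes had 5 of 19 tested genes called higher with AAV-shSCR and 3 with AAV-shA4. Irf7, a regulator of the interferon response, rose by 1.11 ± 0.21 and 0.92 ± 0.20 on the log2 scale (edgeR, adjusted p = 0.00124 and 0.00623). Oasl2 had 0.94 ± 0.23 and 0.80 ± 0.23, and Rtp4 0.88 ± 0.17 and 0.72 ± 0.17, on the same scale. Gbp3, added after its values were seen, was called in AAV-shSCR mice (0.52 ± 0.14, adjusted p = 0.0173) and was at 0.35 ± 0.14 in AAV-shA4 mice (adjusted p = 0.110). The 7 transcription factors that bind MHC promoters with the transactivators (the RFX and NF-Y subunits and Creb1) had 0 genes called in either SCA7 group. Of the costimulation genes 0 of 5 were called.

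**Figure D3:**
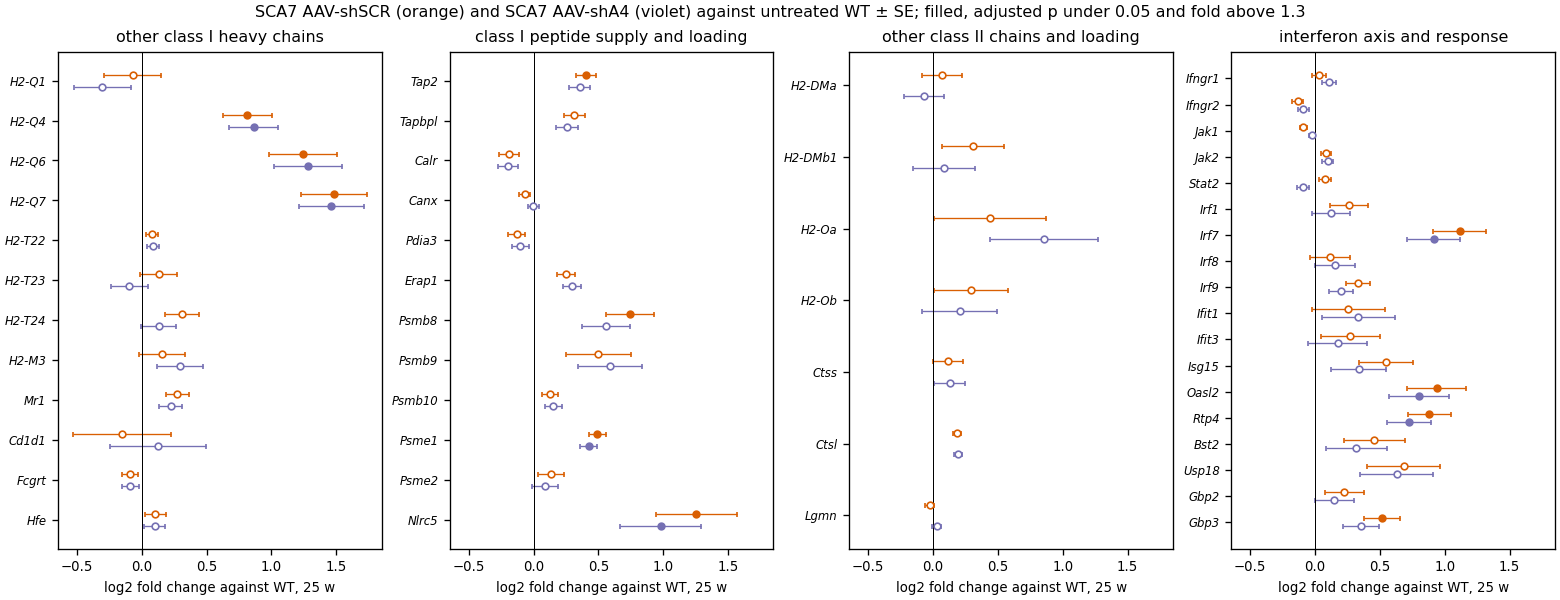
Log2 fold changes ± SE against untreated WT mice at 25w (x axis) of tested genes of 4 lists (y axis), in orange for SCA7 mice given AAV-shSCR and in violet for AAV-shA4; filled points passed the test. H2-Q4, H2-Q6, H2-Q7, Psme1, Nlrc5, Irf7, Oasl2 and Rtp4 are filled in both, and no gene of class II loading is filled.

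Markers of cells that carry MHC were read beside these results. Of 12 microglia markers 0 were called in either SCA7 group, and their sum lay between 238 and 315 CPM with AAV-shSCR, between 242 and 313 with AAV-shA4 and between 244 and 277.5 in WT mice. The T cell and NK cell markers summed to 3.63 to 4.39, 3.29 to 5.48 and 3.18 to 3.87 CPM in the same order. The B cell and plasma cell markers summed to 6.67 to 8.40, 6.50 to 9.35 and 5.90 to 7.37 CPM. Of the first list 3 of 16 genes were tested and of the second 2 of 9, with 0 called. Trac alone had 2.09 to 2.47 CPM in WT mice. Cd3e and Cd8b1, with at most 8 reads in an AAV-shSCR mouse, lay wholly above WT there, and 0 of the 16 did so with AAV-shA4. Of all genes tested, 7.48% and 5.53% lay wholly higher. Of the 9 tested dendritic cell and macrophage markers 0 were called, and the sum of the list was 145 to 151 and 137 to 154 CPM, lower than the 157 to 170.5 of WT mice. Most of this sum came from Zbtb46 (80.6, 78.9 and 90.3 CPM on average) and Flt3 (46.1, 47.4 and 52.8 CPM). Of the 7 endothelial markers 1 was called in each SCA7 group, the tight junction gene Cldn5, which was lower (log2 fold change -0.40 ± 0.08 and -0.63 ± 0.08), and 4 of 7 had a log2 fold change above 0. Pecam1, another of them, was at 0.22 and 0.25 on the log2 scale, under the fold limit (edgeR, adjusted p = 0.00967 and 0.00562). The list summed to 221 to 254 and 234 to 254 CPM in SCA7 mice and to 241 to 268 in WT mice. The red blood cell gene Hbb-bs was called higher with AAV-shSCR (1.81 ± 0.54), with the highest value of 16.3 CPM in replicate 1. The Purkinje cell genes Pcp2, Calb1 and Car8 were called lower in both, by 0.41 to 0.49 on the log2 scale. The part of these cells in the class I result was not tested.

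No class II gene was called in SCA7 mice, though all 5 lay above WT on average. In reads of Cd74, the WT mice at 25w had 9.13, 10.3, 10.4 and 11.04 CPM, the SCA7 mice given AAV-shSCR 23.4, 14.4, 14.7, 10.4 and 10.1 CPM, and those given AAV-shA4 11.5, 12.5, 8.78, 13.5 and 9.37 CPM. Against WT it stood 0.52 ± 0.20 higher on the log2 scale in AAV-shSCR mice (edgeR, adjusted p = 0.0896) and 0.12 ± 0.20 higher in AAV-shA4 mice (adjusted p = 0.747), and the groups overlapped. The AAV-shSCR value was called when replicate 5 of that group was left out (0.63, adjusted p = 0.0414) and was 0.28 (adjusted p = 0.217) without replicate 1. The 3 class II chains and Ciita likewise had 0 calls. Their log2 fold changes lay between 0.32 and 0.56 in AAV-shSCR mice and between 0.09 and 0.33 in AAV-shA4 mice. Without replicate 1 of the AAV-shSCR group the former lay between 0.16 and 0.27. Of the 7 tested genes of class II loading, such as H2-DMa and Ctss, 0 were called in either SCA7 group. The ratio of Cd74 to H2-K1 reads, whose denominator was itself called higher in both groups, lay between 0.190 and 0.293 with AAV-shA4, between 0.229 and 0.350 with AAV-shSCR and between 0.297 and 0.356 in WT mice.

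**Figure D4:**
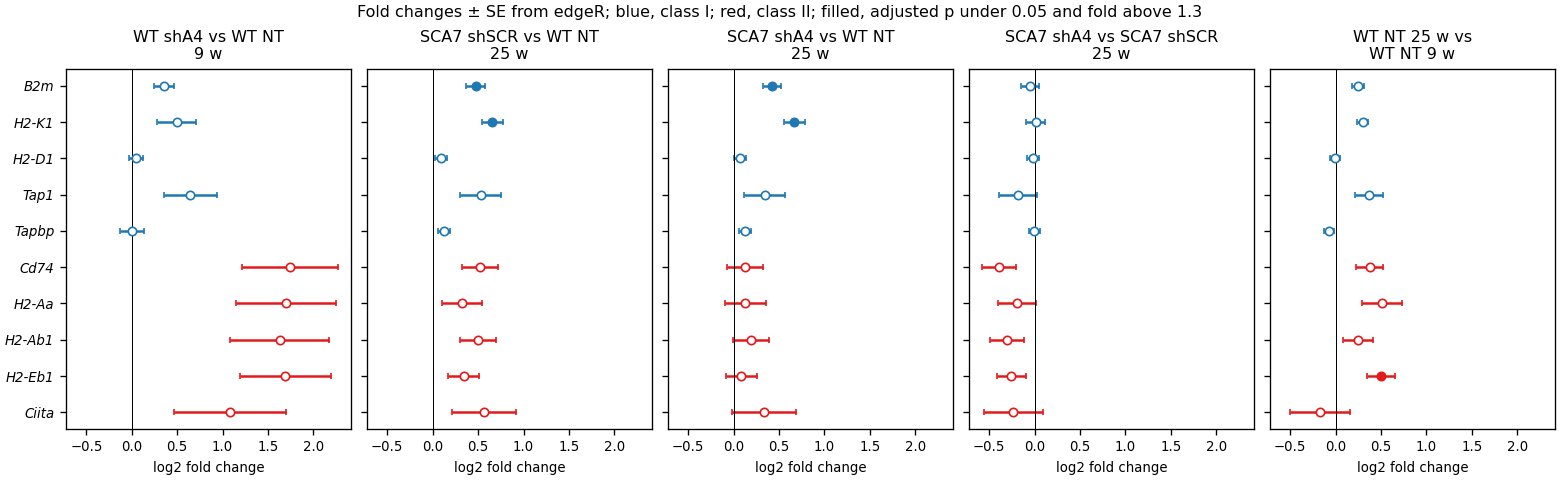
Log2 fold change ± SE (x axis) of each gene (y axis) in the 5 comparisons, blue for class I and red for class II; filled points passed an adjusted p under 0.05 and a fold above 1.3. H2-K1 and B2m are filled in both SCA7 groups against WT mice, and H2-Eb1 in untreated WT mice at 25w against 9w.

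Between the hairpins in SCA7 mice, 0 of the 10 genes were called, and 0 of 14862 genes tested (0%). At an unadjusted p under 0.05 there was 1 of the 10, beside 1222 genes (8.22%) of all tested, and DESeq2 called 5 genes and 0 of the 10. This gene was Cd74, with a log2 fold change of -0.39 ± 0.19 (95% interval -0.76 to -0.03, edgeR, adjusted p = 0.606), and -0.16 without AAV-shSCR replicate 1. H2-K1 differed by 0.01 ± 0.11 (95% interval -0.20 to 0.22) and B2m by -0.05 ± 0.09 (-0.24 to 0.14). For H2-D1 the interval was -0.15 to 0.11 and for Tapbp -0.12 to 0.12. Those of Tap1 (-0.59 to 0.23), H2-Aa (-0.61 to 0.22) and Ciita (-0.87 to 0.40) were wider. All 5 class II genes had a log2 fold change below 0, and the 95% intervals of 4 of them included 0.

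AAV-shSCR replicate 1 held the highest value of its group in 9 of the 10 genes, Tapbp being the exception. Its Tap1 level was 2.15 times the median of the other 4 mice, that of Ciita (1.11 CPM) 2.70 times and that of Cd74 1.88 times. Of the 12 microglia markers, 11 were above all other mice of the group, among them C1qa with 41.0 CPM against 26.4 to 31.02. Of the 12 class I supply genes 9 were highest there, with Nlrc5 at 7.30 against 2.499 to 3.71 CPM. The 5 red blood cell markers were highest in this mouse as well, while the T cell markers had 5 of 16. All 6 choroid plexus markers were below the other 4 mice, with a sum of 617 against 1696 to 2850 CPM. Of all 14862 genes tested in the comparison with WT mice, 22.1% were highest in this mouse and 23% lowest. The part of these cells in its levels was not tested.

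In WT mice at 9w, those given AAV-shA4 were compared with untreated ones. No gene of the 10 was called, while 7 had an unadjusted p under 0.05, beside 8 called genes and 1639 (11.1%) with such a p among 14733 tested. Of all genes 0.0475% were called higher. The log2 fold changes were above 0 in all 10, at a median of 0.35 for class I and 1.69 for class II, beside -9.941e-05 over all genes. B2m, Cd74, H2-Aa and H2-Eb1 had no overlap between groups, where 7.52% of all genes lay wholly higher.

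One mouse made most of this difference, namely replicate 3 of the AAV-shA4 group, which was highest of its group in all 10 genes and highest of all 20 mice in 6. Its Cd74 level was 56.7 CPM (2030 reads), against 10.9 and 11.7 CPM in the other AAV-shA4 mice and 5.77, 8.24 and 9.56 CPM in the untreated ones. H2-Aa stood at 25.03 CPM against 2.71 to 4.82 in the other 5 mice, H2-Ab1 at 18.6 against 2.40 to 3.88 and H2-Eb1 at 18.4 against 2.27 to 4.12. Ciita, the transactivator, stood at 1.98 against 0.287 to 0.536 CPM (71 reads). These 5 genes were 5.67 to 5.94 times the median of the other mice. Class I was raised less in this mouse, with H2-K1 at 53.1 CPM against 24.1 to 30.2 (2.14 times the median), Tap1 at 7.57 against 2.61 to 3.65 (2.42 times) and B2m at 130.4 against 77.5 to 101 (1.41 times). H2-D1 at 152 against 123 to 142 CPM and Tapbp at 47.8 against 30.7 to 40.3 moved least.

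Without this mouse the log2 fold changes against untreated WT mice were 0.51 for Cd74, 0.42 for H2-Aa, 0.35 for H2-Ab1 and 0.58 for H2-Eb1 (edgeR, adjusted p = 0.191, 0.288, 0.365 and 0.159). Those of Ciita, Tapbp and H2-D1 turned to -0.28, -0.20 and -0.04. B2m was at 0.20 and H2-K1 at 0.11. Still 0 of the 10 genes were called, while the genes called over the whole table rose from 8 to 43. With all mice, 3 against 3, the smallest exact permutation p is 0.1, which B2m, Cd74, H2-Aa and H2-Eb1 had.

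Markers of several immune cells stood high in the same mouse. Of the 16 T cell and NK cell markers, 15 were above all other 5 mice at 9w and 0 were at 0, and their sum was 11.7 CPM against 3.58 to 4.97. Among them were the T cell receptor gene Trbc2 (0.838 against 0.0424 to 0.0821 CPM) and the CD3 chain gene Cd3e (0.503 against 0 to 0.0636). The coreceptor Cd8a (0.503 against 0 to 0.0536) was another. Of the 9 B cell and plasma cell markers 4 were higher than in the others, led by Igkc, the kappa light chain (3.16 against 0.236 to 2.10 CPM). Of the 12 dendritic cell and macrophage markers 8 were higher, such as Ccr2 (2.10 against 0.575 to 1.01 CPM), and of the 12 microglia markers 9, such as C1qa (38.0 against 22.5 to 25.8 CPM), with P2ry12 (10.2 CPM) inside the range of the others. Neutrophil, red blood cell and cerebellar neuron markers had 0 genes above the others. All 6 choroid plexus markers were below the other 5 mice, such as Ttr (569 against 784.5 to 1779 CPM). Of all 14733 genes tested at 9w, 15.2% were highest in this mouse and 15.8% lowest. The part of these cells in the class II levels was not tested.

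Of the 20 genes of the interferon gamma axis and interferon response, 11 were above the other 5 mice, such as Gbp2 (16.0 against 4.31 to 5.95 CPM), Irf1 (8.38 against 3.40 to 5.93) and Irf8 (5.28 against 2.24 to 2.71). Irf7 was inside the range of the others. Nlrc5 stood at 2.60 against 0.678 to 0.987 CPM, Psmb8 at 4.78 against 1.92 to 2.36 and Psmb9 at 3.60 against 0.964 to 1.498. H2-Q6 stood at 3.58 against 0.382 to 0.934 and H2-Q7 at 2.23 against 0.297 to 0.589 CPM. Of the class II loading genes H2-DMa stood at 6.98 against 3.99 to 4.90, and Cd274, the ligand of PD-1, at 3.49 against 1.32 to 2.23 CPM.

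**Figure D5:**
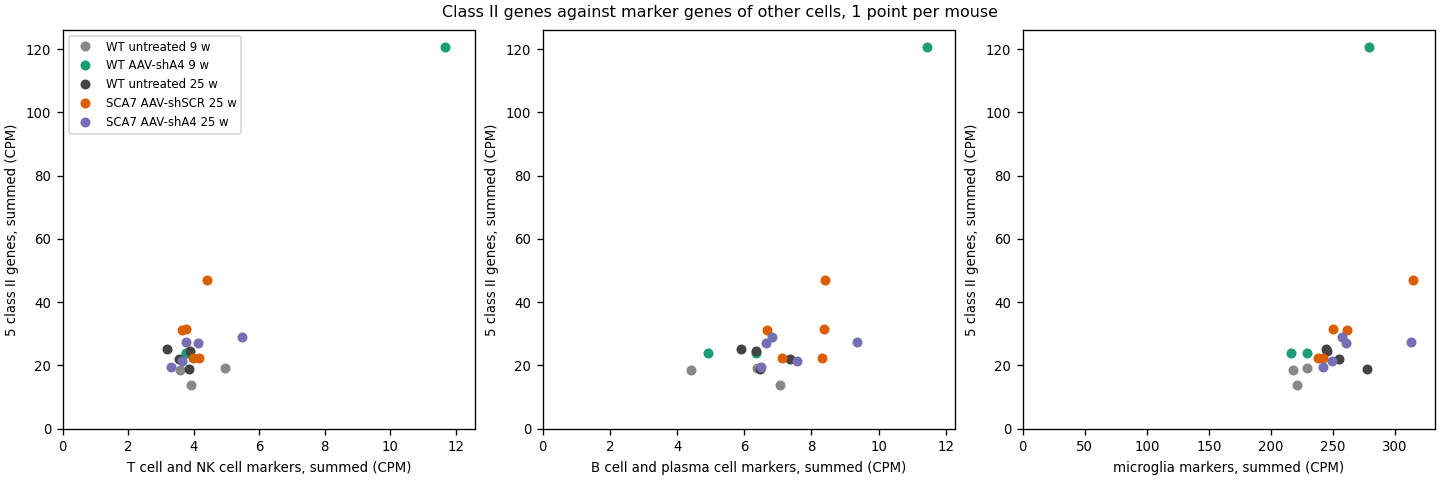
Summed CPM of the 5 class II genes (y axis) against the summed CPM of T cell and NK cell, B cell and plasma cell, and microglia markers (x axes), with 1 point per mouse. AAV-shA4 WT replicate 3 stands apart at 120.7 CPM of class II and 11.7 CPM of T cell markers, while AAV-shSCR replicate 1 reaches 47.0 CPM of class II at 4.39 CPM of T cell markers.

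Untreated WT mice at 25w were compared with those at 9w, where time and cohort cannot be told apart. Of the 10 genes, 1 was called higher, beside 3.23% of all genes, and 3 passed an adjusted p under 0.05 alone, beside 11.9% of all genes that did so and were higher. The called gene was H2-Eb1, with 3.24, 4.32, 3.91 and 3.89 CPM at 25w and 2.27, 3.24 and 2.65 CPM at 9w, so the groups overlapped by a narrow margin (log2 fold change 0.50 ± 0.15, adjusted p = 0.042). The call was lost, at an adjusted p of 0.0844 to 0.140, without replicate 1 or 3 at 9w or replicate 2, 3 or 4 at 25w. H2-K1 (25w, above; 9w, 24.1, 24.5 and 27.9 CPM) was higher by 0.30 ± 0.06 on the log2 scale (adjusted p = 0.00716), and B2m (84.7, 77.5 and 92.3 CPM at 9w) by 0.25 ± 0.07 (adjusted p = 0.0225), both under the fold limit. H2-K1 and B2m were the 2 genes without overlap, beside 16.7% of all genes. H2-D1 had a log2 fold change of -0.01 ± 0.05 (95% interval -0.11 to 0.10).

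In the same comparison, Nlrc5 was called higher (0.84 ± 0.27, adjusted p = 0.047), as were Ctss, a protease that trims the invariant chain (0.67 ± 0.08, adjusted p = 0.000506), the interferon-induced Ifit3 and Ifit1 (0.92 ± 0.26 and 0.82 ± 0.26) and the dendritic cell marker Cd209a (1.57 ± 0.43, at a mean of 0.385 CPM). Cd209a was the 1 gene called among the 9 tested dendritic cell and macrophage markers, of which 4 had a log2 fold change above 0, with a median of -0.06. Nfyc, an NF-Y subunit, was called lower by -0.40 ± 0.05. Of 12 microglia markers 0 were called, and all 12 had a log2 fold change above 0, with a median of 0.23. Among the markers, 3 of 5 red blood cell genes (Hba-a1, Hbb-bt and Hbb-bs) and the granule cell gene Cbln1 were called lower.

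Across the 14 mice at 25w the class II genes went together, with Ciita apart. Deviations of log2 CPM from the group means, an alternative chosen after the data were seen, take out the group differences. The means include all mice of a group, so a correlation without 2 mice still depends on the mice left out. Permutations shuffled the deviations over all mice regardless of group, so their p-values are approximate and may be too small. For Cd74 with H2-Eb1, Pearson's r was 0.92 and Spearman's rho 0.81 (permutation p = 1e-05, the smallest they can give, and 0.00072, adjusted over 8 pairs 8e-05 and 0.00144), and r was 0.93 without the 2 mice farthest from the median. With H2-Aa r was 0.82 and rho 0.82, and with H2-Ab1 0.86 and 0.78, with r of 0.79 and 0.66 after leaving out 2 mice. For Cd74 with Ciita, r was 0.57 and rho 0.17 (permutation p = 0.0385 and 0.562, adjusted 0.0385 and 0.562), and r was -0.13 without 2 mice, so that relation rests on them. Ciita had 11 to 38 reads in these mice.

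For class I, where the SCA7 and WT mice form separate clusters in H2-K1, the relation is given within groups only. H2-K1 with Tap1 had r of 0.94 and rho of 0.85 (permutation p = 3e-05 and 0.00029, adjusted 0.00012 and 0.00144). With B2m they were 0.88 and 0.68, with Tapbp 0.73 and 0.81 and with H2-D1 0.80 and 0.64. Leaving out 2 mice, AAV-shSCR replicate 1 and AAV-shA4 replicate 2, gave r of 0.79, 0.59, 0.63 and 0.37. Both mice still count in the group means used here. In the 6 mice at 9w, r between the log2 CPM of Cd74 and of the 3 chains, not centred on group means, was 0.98 to 0.99 with all mice and 0.55 to 0.74 without AAV-shA4 replicate 3 and untreated replicate 1. As deviations from group means, r was 0.84 to 0.91 in the 4 mice left without AAV-shA4 replicates 1 and 3. The group means were taken with all 6 mice, so this r still depends on replicate 3 and does not show the relation without it.

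Of 13327 other protein-coding genes, those most like Cd74 in rank over the 14 mice were Tsr3 (rho 0.93), Cd52, a lymphocyte and myeloid surface antigen (0.89), Cyth4 (0.86), Cactin (0.82) and Ebf4 (0.82). Cd74 had a rho of 0.93 with H2-Eb1 on the same measure. Those most like H2-K1 were H2-Q4 (0.94), the interferon-induced Ifi27 (0.93), Zc3h7b (0.92), Mccc2 (0.90) and Nkiras2 (0.90), where B2m had 0.89. These are descriptions over 14 libraries that share the group differences.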

How the data were processed

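The authors trimmed the first of 50 bases of each single read, removed adapter and low-quality sequence with cutadapt 1.10 and ribosomal reads with Bowtie2 2.2.8, mapped to mm10 with STAR 2.5.3a and counted with HTSeq 0.6.1p1, versions as in the submitters' processing notes. The deposited counts are raw reads per gene (Ensembl 102) in 20 libraries. The library kit keeps strand, and whether counting used it is not given in the sources used here.

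Symbols and positions came from GENCODE M21, which has 55141 of the 55401 genes. The 21897 protein-coding genes were tested in R 4.3.3 with edgeR 4.0.16 (TMM, low counts removed by filterByExpr at min.count 10 and min.total.count 15, quasi-likelihood test), in 3 fits of 6, 14 and 7 libraries, and p-values were adjusted by Benjamini-Hochberg over all genes tested. A library held 31465586 to 54570503 counted reads, so precision depends on how mice vary. The biological coefficient of variation was 0.0729, 0.0790 and 0.0784. CPM used TMM over all 20 libraries. Correlations used log2(CPM + 0.1) and 100000 permutations. DESeq2 1.42.0 was an alternative. The fits were tested on simulated data.

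The genes, lists and motifs were chosen with earlier results of these data known. Named are the 10 genes, up to 3 called genes in each direction from each other list, markers that move with them, and the 5 genes most like Cd74 and H2-K1. Promoters of H2-Ab1, Ciita and Cd74 were not used here. Single values of some listed genes are not reported here, while the counts over their lists include them.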

Additional observations from a re-analysis of the deposited data

Results flagged for a closer look

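In the 3 groups at 25w, each gene was tested by Dixon's test for a mouse that stands apart from the rest of its group. This covers 30 sets of values, and among independent sets chance alone marks about 1 in 20. These sets share mice and many of the genes go together within groups, so marks in 1 mouse are not independent. The test marked 6, all of them the highest value of SCA7 mice given AAV-shSCR and all in replicate 1. The values were 186.1 CPM of B2m, 66.81 CPM of H2-K1, 165.0 CPM of H2-D1, 9.798 CPM of Tap1, 7.268 CPM of H2-Ab1 and 1.105 CPM of Ciita. The gap to the next mouse was between 0.720 and 0.859 of the range of the group. The groups of 3 mice at 9w are too small for this test, so AAV-shA4 WT replicate 3 was not tested in this way.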

How the results depend on the processing

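Over all genes, the count called in AAV-shA4 against untreated WT mice at 9w (8) was 53 by DESeq2, 26 with no filter, 16 with all genes of the table, 19 with robust estimation, 20 with all 20 libraries in 1 fit and 1 to 43 when 1 mouse was left out. The replicate block gave 37. The count between hairpins (0) was 5 by DESeq2. With the adjusted p alone, 2309, 2018 and 3418 genes were called in SCA7 with AAV-shSCR, SCA7 with AAV-shA4 and untreated WT mice at 25w against 9w, where 3 of the members passed. The count of members for the WT mice at 25w against 9w (1) was 2 by DESeq2, 0 with the replicate block, 0 with all 20 libraries and 0 to 3 with 1 mouse left out. For AAV-shSCR against WT it was 1 (without replicate 1 of that group, where B2m fell under the fold limit) to 3 (without replicate 5, where Cd74 was called), and for AAV-shA4 against WT it stayed at 2. The replicate numbers do not pair the mice, with correlations of -0.23 to 0.49 between same-numbered mice, and the block moved the members' calls nowhere else. With the replicate block, the log2 fold change of Tapbp at 9w turned to -0.014 and that of H2-D1 in WT mice over time to 0.014.

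Signs turned with 1 mouse left out in 11 values. At 9w, Ciita ranged from -0.28 to 1.48, Tapbp from -0.20 to 0.14 and H2-D1 from -0.042 to 0.11. Between hairpins, H2-K1 ranged from -0.057 to 0.14, H2-D1 from -0.053 to 0.051, Tapbp from -0.040 to 0.037, Ciita from -0.38 to 0.17, Tap1 from -0.30 to 0.11 and B2m from -0.11 to 0.076. Over time, H2-D1 ranged from -0.047 to 0.056 and Ciita from -0.38 to 0.055. The cause was not tested. Deviations from group means, added after the data were seen, made 3 correlations at 9w pass by the adjusted p of Spearman's rho that had not. The other 29 values, with a pseudocount of 1 CPM or with deviations, stayed on their side of the threshold. For deviations these p-values are approximate and may be too small, since the shuffling ignored the groups. Ciita, with 11 to 71 reads, is limited by depth.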
